A study of Mus musculus with 2 samples.

Results

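The imprinted miRNAs made from the Mest, H19/Igf2 and Gnas loci were measured in retina of newborn (postnatal day 0) wild-type mice of the outbred strain CD-1. They are the 5p and 3p arms of 5 hairpins, miR-335 (Mest), miR-675 (H19), miR-483 (Igf2), and miR-296 and miR-298 (Gnas region), chosen by name, and all 10 arms were among the 1358 miRNAs in the deposited tables. The series holds a single group, wild-type retina with no treatment in the labels, with 2 small RNA libraries called replicate 1 and replicate 2. The labels do not say whether the libraries came from separate animals, so the SDs measure only the spread between these samples, which can be technical. With no second condition, no level can be compared between conditions. The title of the series places it in work on miR-216b, Foxn3 and the making of amacrine cells.

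Imprinted genes are transcribed mainly from the chromosome of one parent. In the mouse, Mest (a hydrolase family member) and Igf2 (a fetal growth factor) are expressed from the paternal chromosome, and H19, a long non-coding RNA beside Igf2, from the maternal one. The Gnas locus holds overlapping transcripts with maternal, paternal and biallelic expression, among them the antisense RNA Nespas. A miRNA hairpin is cut into a duplex of a 5p and a 3p arm, the arm that is kept is loaded into an Argonaute protein, and bases 2 to 8 of that arm, the seed, do most of the pairing with target mRNAs. The tables hold no information on the parental allele, so imprinting itself was not measured here.

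The mature arms are shown because the seed decides which mRNAs each arm can pair with. All 10 matched an entry of the RefSeq miRNA table (GRCm38.p6), and capitals mark the seed.
miR-296-5p: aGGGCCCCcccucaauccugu
miR-296-3p: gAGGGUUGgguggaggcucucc
miR-298-5p: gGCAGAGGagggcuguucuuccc
miR-298-3p: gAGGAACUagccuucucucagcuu
miR-335-5p: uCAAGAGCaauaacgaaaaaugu
miR-335-3p: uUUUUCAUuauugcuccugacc
miR-483-5p: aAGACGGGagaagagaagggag
miR-483-3p: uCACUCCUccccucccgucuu
miR-675-5p: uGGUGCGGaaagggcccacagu
miR-675-3p: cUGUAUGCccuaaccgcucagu
No seed was shared between members, and none was found in another of the 1679 mature entries of that table, so the 10 arms form no seed family with each other or with the entries searched. The arms ranged in G and C content from 30.4% in miR-335-5p to 68.2% in miR-296-3p, against a median of 52.2% over the 1152 listed miRNAs that had an entry. Both miR-335 arms were the poorest in G and C of the set (36.4% in miR-335-3p).

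The hairpins lie at 3 places in the genome, given here on GRCm38. Mir335 is on the plus strand of chromosome 6 (30741299 to 30741396), in an intron of Mest, the second one in 4 of the 7 transcripts of Mest in GENCODE M21 that span it. Mir675 is transcribed from the minus strand of chromosome 7, from 142577064 to 142577147, within exon 1 of the H19 transcripts H19-202 and H19-205, in exon 2 of H19-206 and in an intron of a further H19 transcript. Mir483 lies on the same strand 77776 bases away (142654924 to 142654996), in intron 2 of 6 of the 7 Igf2 transcripts that span it. Mir296 (174267047 to 174267125) and Mir298 (174267504 to 174267585) are on the minus strand of chromosome 2, with 378 bases between them. No annotated transcript other than their own spans them, and the nearest end of the annotated Nespas gene, on the same strand, is 13651 bases from Mir298, while Gnas, on the opposite strand, starts 16734 bases from it.

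The libraries held 8337902 counts in replicate 1 and 8118208 in replicate 2. A level is given in CPM, the count divided by its library total and multiplied by 1000000. The counts of all 10 members were whole numbers in both libraries, so they showed no sign of reads split with another miRNA. Exact binomial 95% intervals, given in square brackets, cover counting error only, and so do the binomial tests. PCR copies were not told apart by molecular identifiers, so the intervals can be too narrow and the p-values too small. Adapter ligation favours some sequences over others, so a ratio between different miRNAs or arms mixes RNA amount with ligation yield. The tissue label fitted its markers in that the 5 neural retina miRNAs set for this (miR-9-5p, miR-124-3p, miR-182-5p, miR-183-5p and miR-96-5p) were all detected and summed to 408992 ± 15239 CPM (SD, n = 2). That sum was carried by miR-9-5p (mean 227200 CPM), miR-182-5p (110064 CPM) and miR-183-5p (65116 CPM), while the neuronal miR-124-3p averaged 649 CPM.

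The Gnas and Mest hairpins supplied nearly all the counts of these loci in the newborn retina, and the H19 hairpin supplied almost none. Together the 10 arms held 0.336% of the counts of replicate 1 and 0.321% of those of replicate 2. The 2 Gnas hairpins held 75.3% ± 0.167 of the members' counts, Mest 24.1% ± 0.244, Igf2 0.631% ± 0.0718 and H19 0.011% ± 0.0047 (SD, n = 2). The Gnas hairpins stood at 2534 CPM in replicate 1 and 2410 CPM in replicate 2, against 803 and 777 CPM for the Mest hairpin, 22.9 and 18.6 CPM for the Igf2 hairpin, and 0.48 and 0.25 CPM for the H19 hairpin. No locus overlapped the next one in either library. Gnas exceeded Mest 3.13-fold (log2 ratio 1.65 ± 0.018), Mest exceeded Igf2 38.1-fold (5.25 ± 0.18) and Igf2 exceeded H19 50.8-fold (5.67 ± 0.36; 0.5 added to each count, SD, n = 2), each beyond 2 SD. The last ratio rests on 4 and 2 counts of H19 and is imprecise. In whole tissue, fewer cells with a miRNA and less of it per cell cannot be told apart.

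**Figure D1:**
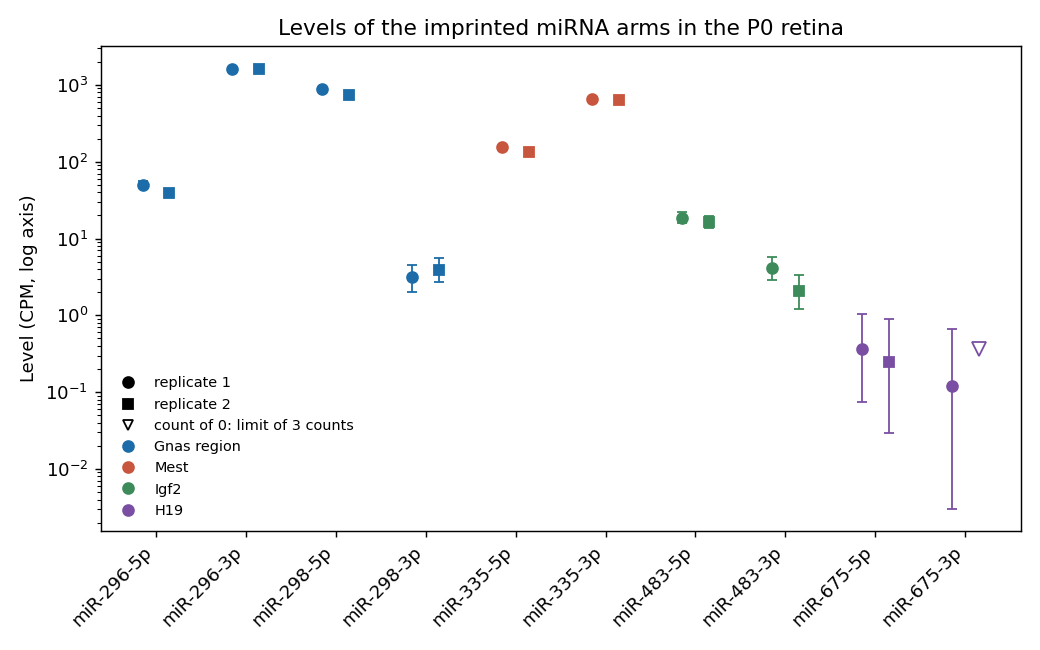
Level in CPM (log axis) of each arm, with circles for replicate 1, squares for replicate 2, exact binomial 95% intervals as bars, and colours for the locus. miR-296-3p is highest at 1607 and 1636 CPM, and both miR-675 arms lie below 1 CPM, with the 0 of miR-675-3p in replicate 2 drawn as an open triangle at the limit of 3 counts.

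The Gnas region gave the 2 highest arms of the set. miR-296-3p had 13402 counts in replicate 1 and 13282 in replicate 2, that is 1607 CPM [1580 to 1635] and 1636 CPM [1608 to 1664], a mean of 1622 ± 20.3 CPM (SD, n = 2) and rank 58 of 1358. The level was nearly equal in the libraries and their intervals overlapped. miR-298-5p had 7277 and 5929 counts, or 873 CPM [853 to 893] in replicate 1 and 730 CPM [712 to 749] in replicate 2, a mean of 802 ± 101 CPM and rank 83. Its intervals did not overlap, and replicate 2 was the lower library. miR-298 has been described in the mouse as a repressor of Bace1, the beta-secretase that cuts amyloid precursor protein.

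The opposite arms of the Gnas hairpins were far lower. miR-296-5p, which is known for targeting Nanog in differentiating mouse embryonic stem cells and for a role in human endothelial cells, had 421 and 320 counts, or 50.5 and 39.4 CPM (45 ± 7.83 CPM, rank 232). miR-298-3p had 26 and 32 counts, or 3.12 and then 3.94 CPM (3.53 ± 0.582 CPM). Both hairpins were thus present through one strong and one weak arm. Over both arms, Mir296 exceeded its neighbour Mir298 2.08-fold (1658 and 1675 CPM for Mir296, against 876 and 734 CPM for Mir298; log2 ratio 1.06 ± 0.19), beyond 2 SD.

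From Mest, miR-335-5p was lower than miR-335-3p, and the libraries kept this order. miR-335-5p, the arm studied as a suppressor of metastasis in human breast cancer, had 1282 and 1088 counts, or 153.8 CPM [145 to 162] and 134.02 CPM [126 to 142], a mean of 144 ± 14 CPM and rank 161. miR-335-3p had 5411 and 5219 counts, or 649 CPM [632 to 666.5] in replicate 1 and 643 CPM [626 to 661] in replicate 2, a mean of 646 ± 4.31 CPM (SD, n = 2) and rank 92. Both arms were above 100 CPM, a level that 13.3% of all 1358 miRNAs reached. Across the members 4 of 10 arms did so, namely these and miR-296-3p and miR-298-5p.

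From Igf2, miR-483 was low but detected through both arms. miR-483-5p, reported in human cells to act on transcripts of IGF2 itself, had 290 counts in all, 156 of them in replicate 1, or 18.7 CPM [15.9 to 21.9] and 16.5 CPM [13.8 to 19.5], a mean of 17.6 ± 1.56 CPM and rank 325. miR-483-3p, known as an oncogenic miRNA of human Wilms tumour, had 35 and 17 counts, or 4.2 CPM [2.92 to 5.84] and 2.09 CPM [1.22 to 3.35], a mean of 3.15 ± 1.49 CPM and rank 484. The value of miR-483-3p in replicate 1 was the higher, but its intervals overlapped.

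From H19, miR-675 was at the edge of detection. miR-675-5p had 3 counts in replicate 1 and 2 in replicate 2 (0.36 CPM [0.0742 to 1.05] and 0.25 CPM [0.0298 to 0.89]). miR-675-3p had 1 count in replicate 1, or 0.12 CPM [0.00304 to 0.668], and 0 in replicate 2. A count of 0 there allows up to 0.37 CPM when the limit is set at 3 counts of the total, and the two-sided exact interval runs from 0 to 0.454 CPM. miR-675 is known to limit the growth of the mouse placenta. H19 RNA itself is outside a library of small RNA, so its level in these retinas is unknown and the low counts of miR-675 say nothing of how much H19 was transcribed.

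Ordered by mean level, the arms ran miR-296-3p, miR-298-5p, miR-335-3p, miR-335-5p, miR-296-5p, miR-483-5p, miR-298-3p, miR-483-3p, miR-675-5p and miR-675-3p. Of the 9 pairs of neighbours in this order, 7 differed beyond their spread, meaning the same sign in both libraries and a mean log2 ratio over 2 SD. The exceptions were miR-298-5p over miR-335-3p, with log2 ratios of 0.43 in replicate 1 and 0.18 in replicate 2 (mean 0.31 ± 0.17), and miR-298-3p over miR-483-3p, with -0.42 and 0.89 (mean 0.24 ± 0.93). The second of these pairs changed order between the libraries. miR-675-5p over miR-675-3p just passed (1.77 ± 0.78), but on 3 and 2 counts against 1 and 0 its order is not established beyond counting error. Since the order was taken from the same 2 libraries, the sign of each mean ratio was largely set beforehand, and the count of 7 is a description only. The non-members closest in level to miR-296-3p, by the summed difference of log2(CPM + 1) over the 2 libraries, were miR-210-3p (1709 CPM, difference 0.15), miR-217-5p (1538 CPM, 0.15) and miR-379-5p (1725 CPM, 0.18), as a description over 2 libraries only.

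The 4 hairpins with enough counts each used one arm at 4-fold or more over the other, but not the same arm. Mir296 and Mir335 gave mainly the 3p arm, and Mir298 and Mir483 mainly the 5p arm, so the 2 Gnas hairpins, 378 bases apart on the same strand, favoured opposite arms. A hairpin with 10 or more counts summed over its arms, in replicate 1 and again in replicate 2, entered an exact binomial test of equal counts in each library, Benjamini-Hochberg adjusted over all 312 hairpins tested. All 4 were called, that is past an adjusted p of 0.05 with the same sign in both libraries and a mean beyond 2 SD, as were 89.4% of all hairpins tested. In all, 40.4% of tested hairpins were dominated 4-fold by the 5p arm and 36.9% by the 3p arm in both libraries, against 2 and 2 of the 4 here, which is close to the background.

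Mir298 was the most lopsided of the set. Its 3p arm made up 0.356% [0.233 to 0.521] of its 7303 counts in replicate 1 and 0.537% [0.367 to 0.757] of 5961 in replicate 2, a log2 ratio of 5p over 3p of 8.10 and 7.51 (mean 7.81 ± 0.42, SD, n = 2). A larger ratio in either direction was seen in 20.8% of tested hairpins. Mir296 gave 97.0% [96.7 to 97.2] of 13823 counts from the 3p arm in replicate 1 and 97.6% [97.4 to 97.9] of 13602 in replicate 2, a log2 ratio of -4.99 and -5.37 (mean -5.18 ± 0.27). Both libraries placed these hairpins far from even use, and the exact binomial p in each, as for Mir335, was below the smallest value the arithmetic can hold.

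Mir335 and Mir483 lay close to the 4-fold line. Mir335 gave 80.8% [79.9 to 81.8] of 6693 counts from the 3p arm in replicate 1 and 82.7% [81.8 to 83.7] of 6307 in replicate 2, a log2 ratio of -2.08 and -2.26 (mean -2.17 ± 0.13). This is a ratio of 4.22-fold and 4.80-fold, and 78.8% of tested hairpins were more lopsided. miR-335-5p made up 19.2% and 17.3% of the hairpin's counts. Mir483 gave 81.7% of 191 counts from the 5p arm in replicate 1 and 88.7% of 151 in replicate 2, a log2 ratio of 2.14 and 2.94 (mean 2.54 ± 0.57; adjusted p = 3.29e-19 and 1.70e-23, exact binomial test). Mir675, with 4 and 2 counts over both arms, was below the minimum and was not tested.

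**Figure D2:**
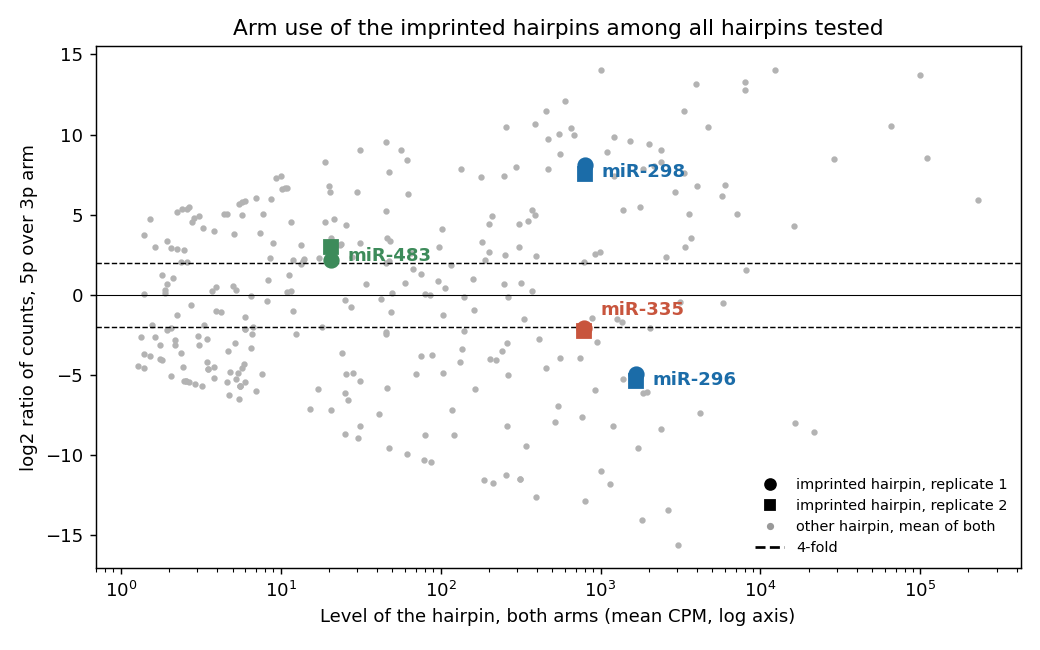
The log2 ratio of 5p over 3p counts of each hairpin against its level over both arms (mean CPM, log axis), with circles and squares for replicates 1 and 2 of the imprinted hairpins and grey points for the mean of the other hairpins. Mir298 lies near 8 and Mir296 near -5, while Mir335 and Mir483 lie nearest to the dashed lines at 4-fold.

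The precursors of the hairpins with the most counts show where the arms lie, with the annotated 5p and then the 3p arm in capitals (RefSeq, GRCm38.p6).
Mir296: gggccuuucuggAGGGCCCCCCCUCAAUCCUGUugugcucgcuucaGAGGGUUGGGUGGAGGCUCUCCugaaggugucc
Mir298: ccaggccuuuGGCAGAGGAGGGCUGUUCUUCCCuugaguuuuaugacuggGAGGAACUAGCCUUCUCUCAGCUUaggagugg
Mir335: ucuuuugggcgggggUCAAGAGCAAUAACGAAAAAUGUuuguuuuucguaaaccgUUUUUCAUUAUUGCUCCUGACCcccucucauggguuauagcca
Of the duplex arms, the one with the less tightly paired 5′ end is often the one kept, and G and C in the first 4 bases give a rough reading of that. In Mir335, the 5p arm has 1 G or C in its first 4 bases and the dominant 3p arm has 0, and in Mir483 the dominant 5p arm has 1 and the 3p arm has 2. Both arms have 3 in Mir296 and in Mir298. Over the 190 hairpins with a dominant arm and both arms in the RefSeq table, the dominant arm had fewer in 47.9%, as many in 30.0% and more in 22.1%, so these 4 hairpins are of the 2 commonest kinds.

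The deposited most frequent read of each arm started at the annotated base in both libraries for 7 of the 10 members, and these included all 6 arms above 10 CPM. miR-296-3p, miR-296-5p, miR-335-3p and miR-483-5p matched the annotated sequence from end to end in both libraries. The most frequent read of miR-335-5p ended 1 base short of the RefSeq entry and that of miR-298-5p ended 2 bases short, in both libraries, which leaves the seed as it is. They are shown here as the files give them, with the seed in capitals.
miR-335-5p read: tCAAGAGCaataacgaaaaatg
miR-298-5p read: gGCAGAGGagggctgttcttc
For 3 arms with few counts the read started 1 base late. In miR-483-3p and miR-298-3p this was so in both libraries, and in miR-675-3p it was so for the single count of replicate 1. The shift moves the seed by 1 base, which can be seen against the annotated sequences above.
miR-483-3p read: cACTCCTCccctcccgtcttgt
miR-298-3p read, replicate 1: aGGAACTAgccttctctcagct
miR-298-3p read, replicate 2: aGGAACTAgccttctctcagcttt
The shifted seed of miR-483-3p, like that of miR-298-3p, was not found in another mature entry of the RefSeq table. Of the 559 miRNAs detected in both libraries below 10 CPM, the group these arms belong to, 18.2% had a start shifted in both libraries, against 6.11% of the 180 at 100 CPM or more. Over all 924 miRNAs detected in both libraries the share was 14.7%.

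Among the weak arms, the most frequent reads of miR-483-3p, miR-298-3p and miR-675-5p departed from the annotation at the 3′ end in at least 1 library. Those of miR-296-5p and the single miR-675-3p read ended at the annotated base. The miR-483-3p read ran 2 bases past the annotated end, and both added bases matched the hairpin. The miR-298-3p read of replicate 1 matched the hairpin throughout, and that of replicate 2, longer by 2 bases, differed from it at its last base (A24T, hairpin base first, positions counted from 1 at the 5′ end of the read). For miR-675-5p the replicate 1 read had 1 base past the annotated end that matched the hairpin, and the replicate 2 read differed at the last base (T22A, counted the same way), on 3 and 2 counts. The most frequent read was the same in both libraries for 7 of the 10 members, the exceptions being miR-298-3p, miR-675-5p and miR-675-3p. Since miR-675-3p had no read in replicate 2, it could not agree. The same read was found for 66.5% of all 924 miRNAs detected in both libraries. By level, this share was 97.2% at 100 CPM or more, 88.6% at 10 to 100 CPM and 49.2% below 10 CPM.

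Between the 2 libraries, the strong arms of Mir296 and Mir335 were nearly equal, while miR-298-5p was lower in replicate 2. miRNAs whose counts in the 2 libraries summed to 10 or more entered an exact binomial test against the library totals, Benjamini-Hochberg adjusted over 710 miRNAs, and this compares the libraries, not conditions. Of the 8 members tested, 3 were called lower in replicate 2 and 0 higher (also 0 at an unadjusted p below 0.05 in the exact binomial test), against 19.6% and 8.31% of all miRNAs tested. They were miR-298-5p (log2 ratio of replicate 2 over replicate 1 -0.26, adjusted p = 2.41e-23), miR-296-5p (-0.36, adjusted p = 0.00386) and miR-335-5p (-0.20, adjusted p = 0.00402, exact binomial test for all). Calls in either direction were far more common at high level, with 141 among the 180 tested miRNAs that reached 100 CPM. Of the 4 members that did so, miR-298-5p and miR-335-5p passed, while miR-296-3p and miR-335-3p did not. These 4 were thus not called more often than other miRNAs of like level.

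These calls depend on the scaling, since the median over all 710 lay at a log2 ratio of -0.12 by library totals and of -0.004 by TMM. Of the 710, 59 were called higher and 139 lower in replicate 2 by library totals, while TMM factors gave 107 higher and 80 lower. With TMM factors, miR-298-5p stayed lower, miR-296-5p and miR-335-5p were no longer called, and miR-296-3p (0.14, adjusted p = 5.12e-15) and miR-335-3p (0.10, adjusted p = 0.00106, exact binomial test) were called higher in replicate 2. By library totals these last were 0.026 (adjusted p = 0.32) and -0.014 (adjusted p = 0.808, exact binomial test), so the direction of miR-335-3p turned with the scaling. miR-483-3p had the largest ratio among the members tested, -0.98, and missed the threshold (adjusted p = 0.0607, exact binomial test). It passed when only miRNAs with at least 50 counts were tested (adjusted p = 0.0426, exact binomial test). Under that minimum, 30.5% of the 488 miRNAs tested were called lower in replicate 2 and 13.5% higher. miR-483-5p (-0.18) and miR-298-3p (0.33) were not called.

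**Figure D3:**
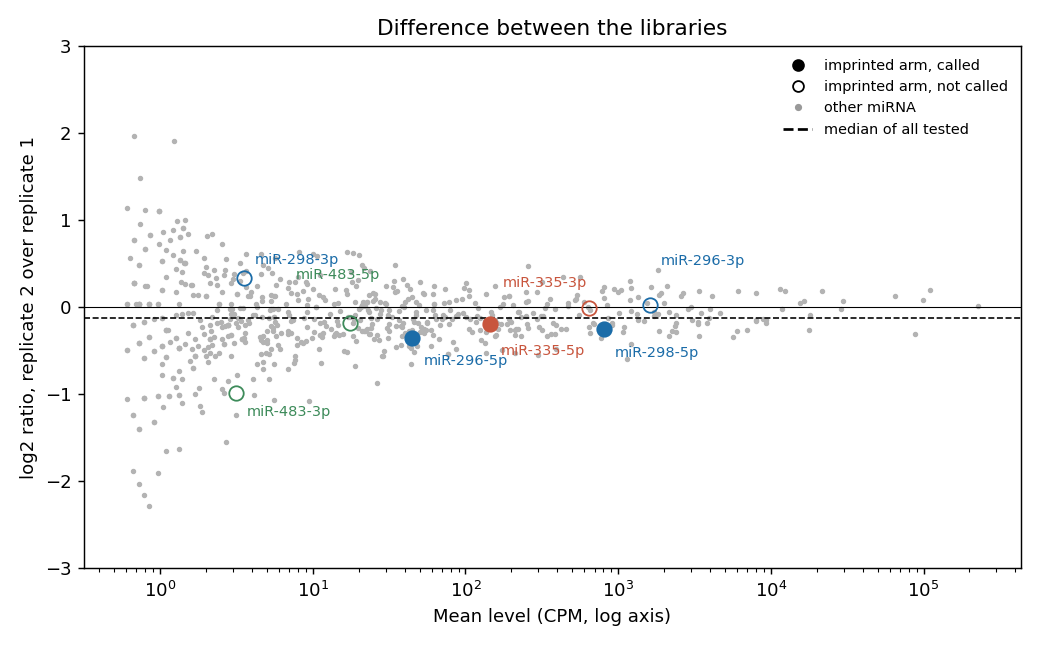
The log2 ratio of replicate 2 over replicate 1 by library totals against the mean level (CPM, log axis) for the 710 miRNAs tested, with filled circles for imprinted arms that were called, open circles for those that were not, and a dashed line at the median of all tested, -0.12. Every member tested except miR-483-3p lies within 0.36 of 0.

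Set beside other imprinted miRNAs of the mouse, the Mest, H19/Igf2 and Gnas arms were fewer but included some of the higher ones. The comparison lists were the miRNAs of the Dlk1-Dio3 region that are expressed from the maternal chromosome, and the families named for the cluster in an intron of Sfmbt2 (miR-297, miR-466, miR-467 and miR-669), which by name also take in copies elsewhere. Of the 10 arms, 9 were detected in both libraries, 6 reached 10 CPM and 4 reached 100 CPM, with a median level of 31.3 CPM. Over all 1358 miRNAs, 924 were detected in both, 365 reached 10 CPM and 180 reached 100 CPM. Of 106 Dlk1-Dio3 arms, 96 were detected in both, 51 reached 10 CPM and 20 reached 100 CPM, with a median of 8.63 CPM. Of 71 Sfmbt2 family arms, 51 were detected in both, 9 reached 10 CPM and 1 reached 100 CPM, with a median of 1.05 CPM, and the median over all 1358 miRNAs was 0.73 CPM. Some Sfmbt2 family arms held equal levels, such as miR-466b-3p, miR-466c-3p and miR-466p-3p (3.42 CPM each), or miR-669a-5p and miR-669p-5p (10.5 CPM each). Reads split between names can give this and would lower the level per arm, which was not tested. The members showed no sign of split reads, so these lists are not fully alike.

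The summed level of the 10 arms was 3283 ± 109 CPM, against 22372 ± 1860 CPM for the Dlk1-Dio3 list and 757 ± 105 CPM for the Sfmbt2 list (SD, n = 2). The log2 ratio of the 10 arms over the Dlk1-Dio3 list was -2.82 in replicate 1 and -2.72 in replicate 2, and that over the Sfmbt2 list was 2.02 and 2.23, both beyond 2 SD. These values rest largely on miR-296-3p: without it the sum was 1661 CPM and the mean log2 ratios of the 2 libraries were -3.75 over the Dlk1-Dio3 list and 1.14 over the Sfmbt2 list, against -2.77 and 2.12 with it. The comparison lists kept all their arms here, although miR-669c-5p alone held 457 of the 757 CPM of the Sfmbt2 list. miR-296-3p lay below 5 of the 106 Dlk1-Dio3 arms and above all 71 Sfmbt2 family arms. Among the Dlk1-Dio3 arms, miR-541-5p led at 3952 ± 239 CPM, followed by miR-381-3p at 2648 ± 212 CPM and by miR-370-3p at 2400 ± 212 CPM. The highest of the Sfmbt2 families were miR-669c-5p (457 ± 56 CPM), miR-467c-5p (45.7 ± 11.3 CPM) and miR-467a-5p (44.1 ± 10.1 CPM).

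**Figure D4:**
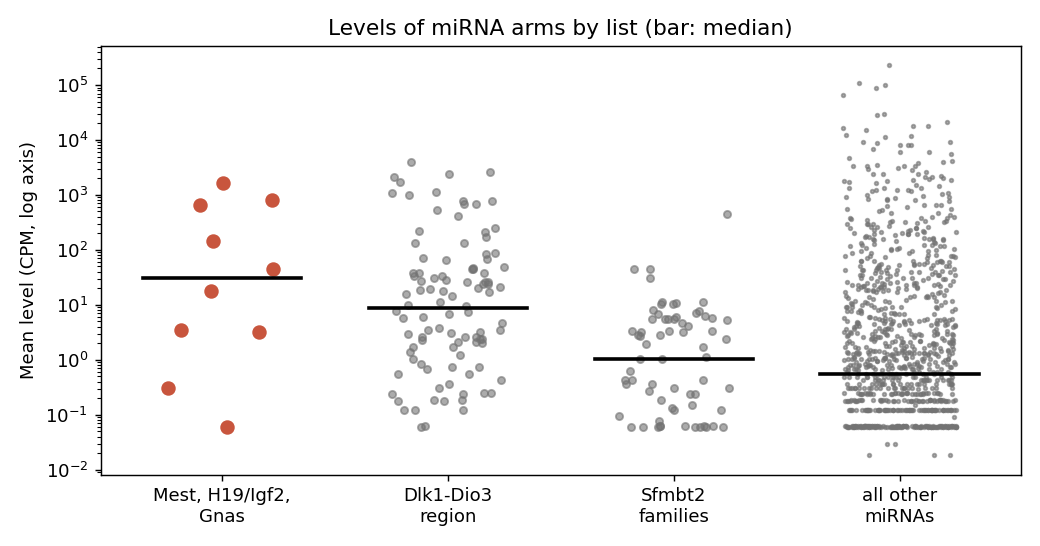
Mean level (CPM, log axis) of each arm of the 10 imprinted arms at Mest, H19/Igf2 and Gnas (red), the Dlk1-Dio3 region, the Sfmbt2 families and all other miRNAs (grey), with a bar at the median. Arms at 0 in both libraries are not drawn but count in the median, and the medians of the first 3 lists are 31.3, 8.63 and 1.05 CPM.

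Some marker miRNAs of tissue beside the neural retina were detected in both libraries, but in several lists a few of them carried most of the sum. The vessel wall list (5 of 6 detected in both libraries, miR-143-5p at 0) summed to 1045 CPM in replicate 1 and, in replicate 2, to 920 CPM, the mesenchyme list of miR-199 and miR-214 arms (6 of 6) to 88.5 and 84.3 CPM, and the pigment epithelium list (4 of 4) to 4147 and 3243 CPM. The erythroid list (4 of 5) summed to 124 and 126.8 CPM, the lens and surface epithelium list (2 of 3, miR-205-5p at 0) to 860 and 990 CPM, and the muscle list (3 of 3) to 88.7 and 92.0 CPM. The muscle sum was mostly miR-206-3p (mean 70.7 CPM), with 18.3 CPM for miR-1a-3p and 1.37 CPM for miR-133a-3p. The erythroid sum was nearly all miR-486a-5p and miR-486b-5p, each with a mean of 62.3 CPM. These names held equal counts in both libraries, and they leave little of the sum for miR-451a. In the erythroid list miR-144-3p averaged 0.18 CPM and miR-144-5p 0.06 CPM. The pigment epithelium sum was nearly all miR-204, with means of 3389 CPM for miR-204-5p and 300.5 CPM for miR-204-3p, against 5.62 CPM for miR-211-5p and 0.12 CPM for miR-211-3p. miR-204 is also made in other eye tissue. The vessel wall sum was mostly miR-126a-3p (mean 905 CPM) and the lens and surface epithelium sum mostly miR-184-3p (804 CPM). miR-143-3p averaged 61.7 CPM and miR-203-3p 121 CPM, while miR-145a-3p and miR-145a-5p stood at 0.98 and 0.18 CPM. The part of cells beside the neural retina in the levels of the imprinted arms was not tested.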

How the data were processed

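Small RNA of 18 to 30 nt was gel-purified from total retina RNA and made into ligation-based libraries, per the labels' protocols. The submitters' processing notes name bcl2fastq 2.17.1.14. Aligner, counter and build are each not given in sources used here. The authors deposited estimated counts per mature miRNA (unscaled), CPM over a library total of their own, whose columns sum to 88.5% of 1000000, and, as text with no score or unit, the most frequent read of each miRNA, marked against miRBase 21 per the file headers. A leading _ in a read was taken, from the values, as a missing 5′ base.

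CPM was computed here over the total of the count table and is 1.13 times the deposited CPM. Counts were rounded to whole numbers for tests. Log2 ratios have 0.5 added to each count. Both tests, adjusted over all hairpins or miRNAs tested, were tried on simulated counts. Those counts held counting error only, so the trial does not cover further spread between libraries. TMM factors came from edgeR 4.0.16 and size factors from DESeq2 1.42.0 (R 4.3.3). The tests used SciPy 1.17.1 and statsmodels 0.14.6, tables pandas 2.3.3 and plots matplotlib 3.10.9 (Python 3.11.15). Sequences and mature positions are from RefSeq, host transcripts from GENCODE M21. The members and lists were chosen with earlier results of these data known. All 10 members are named, with up to 3 miRNAs of each comparison list and the 3 nearest in level to the highest member.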

Additional observations from a re-analysis of the deposited data

How the results depend on the processing

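The arm ratios of the 4 tested hairpins kept their direction and their call with 1 added to each count, with a minimum of 50 counts and with no minimum, and 4 hairpins had a dominant arm under each of these and in each library alone. The summed level of the 10 arms was 2906 CPM by the deposited CPM, whose totals are larger by construction, and 1661 CPM without miR-296-3p. Without that arm, and with the comparison lists left whole, the log2 ratio over the Dlk1-Dio3 list was -3.75 and that over the Sfmbt2 list 1.14. With it they were -2.77 and 2.12. With either TMM or DESeq2 scaling, 2 members were called higher and 1 lower in replicate 2, against 0 and 3 by library totals. Over all 710 tested miRNAs the calls moved the same way, with 107 higher and 80 lower by TMM, 101 and 88 by DESeq2, and 59 and 139 by library totals. miR-335-3p turned to a log2 ratio of 0.10 with TMM and 0.088 with DESeq2 size factors, where the median of all tested miRNAs was -0.004 and -0.02. The number of neighbour pairs beyond their spread was 7 with 1 added to each count in place of 0.5. No paired analysis was possible because there is a single group. Depth limits miR-675, miR-483-3p and miR-298-3p, whose counts are from 0 to 35.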
